A study of Mus musculus with 12 samples.

Results

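The transcripts described here are those of 34 chaperones and chaperone partners that work in the cytosol, the nucleus and the mitochondria, outside the endoplasmic reticulum. They comprise 8 subunits of the chaperonin CCT, 4 subunits of prefoldin, 5 mitochondrial chaperones, 4 HSP70 proteins, 4 HSP110 and exchange-factor proteins, 4 J-domain proteins, 4 proteins of the HSP90 group and the heat shock factor Hsf1. Members were found by gene symbol, and all 34 are among the 24533 gene rows of each of 2 tables. The study sequenced ribosome-depleted total RNA from bone marrow of C57BL/6 mice in 12 libraries, 3 for each of 4 groups. The groups were lineage-negative marrow cells (LinNeg, labelled BM Lin- Cells) and LSK cells (labelled BMT LSK Cells), each with the genotype label WT or U2af1KO. LSK stands for lineage-negative cells that carry Sca-1 and Kit on their surface, among them the blood stem cells. U2af1 encodes the smaller subunit of U2AF, the splicing factor that binds the end of an intron. The labels do not spell out BMT, do not name the allele or the driver of the deletion, give no age, and do not say whether libraries of a group came from separate animals. All values below are of libraries labelled KO against libraries labelled WT within one population, from the authors' deposited tables of that comparison.

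Chaperones bind unfolded or partly folded proteins and release them in rounds driven by ATP. Prefoldin and J-domain proteins deliver clients to the ring-shaped chaperonin CCT and to HSP70, nucleotide exchange factors reset HSP70, and HSP90 with its cochaperones takes over kinases and hormone receptors at a late stage. Mitochondria hold their own HSP60 ring with its lid, an HSP70 and an HSP90. Actin and tubulin are the best known clients of CCT. Heat shock factor 1 is the transcription factor that raises many of these genes after heat or proteotoxic stress, by binding inverted repeats of the letters nGAAn, and a working proteostasis network is known to matter for blood stem cells.

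The gene list was selected on function with results of these comparisons already known, so the counts over its members describe these tables and support nothing beyond them. Both tables are dense in changes. In LinNeg, 7088 of 17108 genes tested passed an adjusted p of 0.05 (41.4% of genes, 22.1% higher and 19.3% lower in KO), and in LSK 10148 of 16482 did (61.6% of genes, 32.4% higher and 29.2% lower). A gene is called here when the authors' deposited adjusted p, computed over the whole table, is under 0.05. The median gene stood at a log2 fold change of 0.16 in LinNeg and 0.04 in LSK. Recentring LinNeg on its median gene turns the split of 3781 higher and 3307 lower genes into 3025 and 4116. Depth per library is unknown because the tables hold no values per library. U2af1 itself was higher in the libraries labelled KO. The authors' deposited tables list it at 0.65 on the log2 scale in LinNeg (SE 0.19, adjusted p = 0.00293) and at 0.61 in LSK (SE 0.06, adjusted p = 1.72e-25). The labels do not name the allele and no values per exon were available, so this whole-gene value does not check the labels. Why it was higher was not tested. KO and WT therefore mean libraries so labelled throughout, and the direction of each fold change depends on those labels and on the title of the deposited comparison alone.

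Kit and Ly6a, which encode the surface proteins that define LSK cells, stood at a derived 28724 and 593.1 normalized counts in LSK WT. Marker genes of several blood lineages moved with the KO label. The derived sum over 12 erythroid markers went from 16569 to 75919 normalized counts in LinNeg (8 of 9 tested higher) and from 14744 to 94256 in LSK (9 of 9 higher), with Hba-a1, Hbb-bt and Hbb-bs at or near 0 in both tables. Neutrophil markers summed to 87589 in WT and 4722 in KO in LinNeg (9 of 11 tested lower), and to 61201 and 172457 in LSK (10 of 12 higher). Monocyte and dendritic markers fell from 81510 to 7007 in LinNeg (10 of 10 lower), whereas in LSK they summed to 7614 and 7348 (3 of 9 tested higher and 3 lower). Stem and progenitor markers summed to 97142 and 31694 in LSK (11 of 12 lower, Kit at 14587 in KO) and to 60839 and 18795 in LinNeg (2 of 12 higher and 5 lower). The LinNeg sum was mostly Gata2 (53682 and 11791), and the other 11 genes summed to 7157 and 7004, with Ly6a higher at 604.5 and 2784. Megakaryocyte markers were lower in 6 of 7 genes in LinNeg and 7 of 7 in LSK. Mast cell, basophil and eosinophil markers summed to 224682 and 32278 in LinNeg (2 of 7 higher and 3 lower) and to 2389 and 8013 in LSK (6 of 7 higher). B cell markers were lower in 3 of 8 genes (sums of 1171 and 842.4) in LinNeg and in 2 of 8 in LSK (1174 and 957.8), T and NK markers had 2 of 6 tested higher and 1 lower in LinNeg (600.7 and 2228 without Nkg7, which fell from 2551 to 723.7) and 0 of 8 called in LSK by the authors' DESeq2 test, 0 also at an unadjusted p under 0.05 (2377 and 2636), and stromal and endothelial markers were lower in 3 of 7 in LinNeg (28606 and 3520 without Col1a1 and Col1a2, which summed to 175980 and 113209 and were not called) and in 2 of 7, with 1 higher, in LSK (4242 and 2571). The sums also hold genes without an adjusted p, among them Cd3e (62.71 and 670.1) and Cd3d (20.63 and 303.7) in the T and NK sum of LinNeg. The part of the marker shifts in the chaperone results was not tested, and in bulk samples fewer cells of a type and less RNA per cell cannot be told apart.

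Promoter windows from RefSeq (build GRCm38.p6, 250 bases before to 50 bases after each start) were given for 26 of the 34 members, as 34 windows. The windows were searched for the heat shock element, written as GAANNTTC or TTCNNGAA, each of which reads the same on both strands, with overlapping matches counted. Of the 26 genes, 10 had at least 1 match (38.5%), against 17.0% of the 27025 mouse genes with a window. The 10 are Bag3, Cct2, Cct5, Cct6a, Dnaja1, Hspa1a, Hspa1b, Hspd1, Hspe1 and Hsph1. The windows of 4 genes are shown 5′ to 3′ on the strand of the gene, with heat shock element matches in capitals and everything else in lower case. Hspe1 and Hsph1 are shown because they had 3 matches each and were called in both populations, Hspa1b because it is the classic heat-induced HSP70 gene, and Bag2 because it had the largest fold change of the members in LinNeg and no match in its window. The windows lie at chr1:55087898-55088197 on the plus strand (Hspe1), chr5:149636287-149636586 on the minus strand (Hsph1), chr17:34959189-34959488 on the minus strand (Hspa1b) and chr1:33757701-33758000 on the minus strand (Bag2).
Hspe1: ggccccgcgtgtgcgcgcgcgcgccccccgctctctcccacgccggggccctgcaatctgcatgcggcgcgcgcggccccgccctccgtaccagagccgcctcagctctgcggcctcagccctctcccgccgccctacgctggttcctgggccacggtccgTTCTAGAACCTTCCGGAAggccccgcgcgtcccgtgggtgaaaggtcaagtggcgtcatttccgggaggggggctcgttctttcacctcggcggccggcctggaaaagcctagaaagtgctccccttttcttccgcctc
Hsph1: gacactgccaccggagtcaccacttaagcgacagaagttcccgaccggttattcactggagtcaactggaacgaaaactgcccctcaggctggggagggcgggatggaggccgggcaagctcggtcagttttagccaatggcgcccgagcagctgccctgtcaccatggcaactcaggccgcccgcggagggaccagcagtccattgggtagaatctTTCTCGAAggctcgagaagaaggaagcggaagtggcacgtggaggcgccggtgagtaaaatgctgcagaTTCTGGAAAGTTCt
Hspa1b: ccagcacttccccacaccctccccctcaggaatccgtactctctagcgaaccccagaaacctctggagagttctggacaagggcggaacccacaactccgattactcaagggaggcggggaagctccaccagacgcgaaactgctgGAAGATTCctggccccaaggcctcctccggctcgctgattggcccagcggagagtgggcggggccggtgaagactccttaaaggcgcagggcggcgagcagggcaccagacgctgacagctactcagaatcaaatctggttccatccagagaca
Bag2: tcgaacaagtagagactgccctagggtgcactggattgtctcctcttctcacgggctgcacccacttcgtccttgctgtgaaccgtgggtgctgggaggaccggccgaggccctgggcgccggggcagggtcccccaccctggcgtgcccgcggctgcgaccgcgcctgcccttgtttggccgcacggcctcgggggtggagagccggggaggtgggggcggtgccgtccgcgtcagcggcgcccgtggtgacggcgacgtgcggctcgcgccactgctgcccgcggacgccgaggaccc
In Hspe1 the 3 matches overlap in one run, and in Hsph1 the first match stands apart while the remaining pair overlaps just before the window's end. A second RefSeq start of the neighbouring gene Hspd1, which is read from the opposite strand, has a window that shares 285 bases with that of Hspe1 and so holds the same 3 matches. The windows of Hspa1a and Hspa1b differ at 4 bases. A match is a description of letters, not of binding.

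Against this map, 6 of the 10 members with a heat shock element match were higher in both populations. So were 12 of the 16 with a window and no match, and 14.1% of the 15735 genes tested in both. The median log2 fold change was 1.41 in LinNeg and 0.66 in LSK with a match, and 0.71 and 0.74 without. The 10 are not separate promoters, since Hspd1 and Hspe1 share their matches and the windows of Hspa1a and Hspa1b are nearly identical. These 4 genes had LinNeg values of 2.08, 1.90, 1.51 and 1.98, all above that median. Hspa1a and Hspa1b, both with a match, had LSK standard errors of 1.15 and 0.96. The 8 members with no window (Cct4, Pfdn1, Hspa9, Hspa8, Dnajc2, Hsp90aa1, Hsp90ab1 and Hsf1) enter neither count. Whether the element bears on the rise was not tested. The other motifs searched were the E-box CACGTG, in 2 of 26 members (7.69%, against 8.09% of all genes), the CCAAT box as CCAAT or ATTGG, in 13 (50%, against 41.1%), and the TATA box as TATAAA or TTTATA, in 1 member, Stip1 (3.85%, against 15.7%).

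Most of the 34 transcripts were more abundant in libraries labelled KO in both populations. In LinNeg 27 were higher (79.4%), 1 was lower and 6 did not pass the threshold, and in LSK 28 were higher (82.4%), none was lower (0 also at an unadjusted p under 0.05 in the authors' DESeq2 table) and 6 did not pass. Higher in both were 24 members (70.6%), beside 14.1% of the 15735 genes tested in both tables. That share is not matched for level, and nearly all members had a mean of at least 100. Among all genes with such a mean, 2987 of 11597 were higher in LinNeg and 4467 of 10772 in LSK. The median member stood at a log2 fold change of 0.79 in LinNeg and 0.69 in LSK, which is 0.64 and 0.65 above the median gene. All 34 members were tested in both tables, with no loss to the authors' filter on low values. The largest fold changes belonged to Bag2, Hspd1, Hspa1b, Hspe1 and Hsph1 in LinNeg and to Hspe1, Hspd1, Bag2, Hsp90aa1 and Pfdn1 in LSK. Dnajb1, Dnajc2 and Hsf1 were called in neither.

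**Figure D1:**
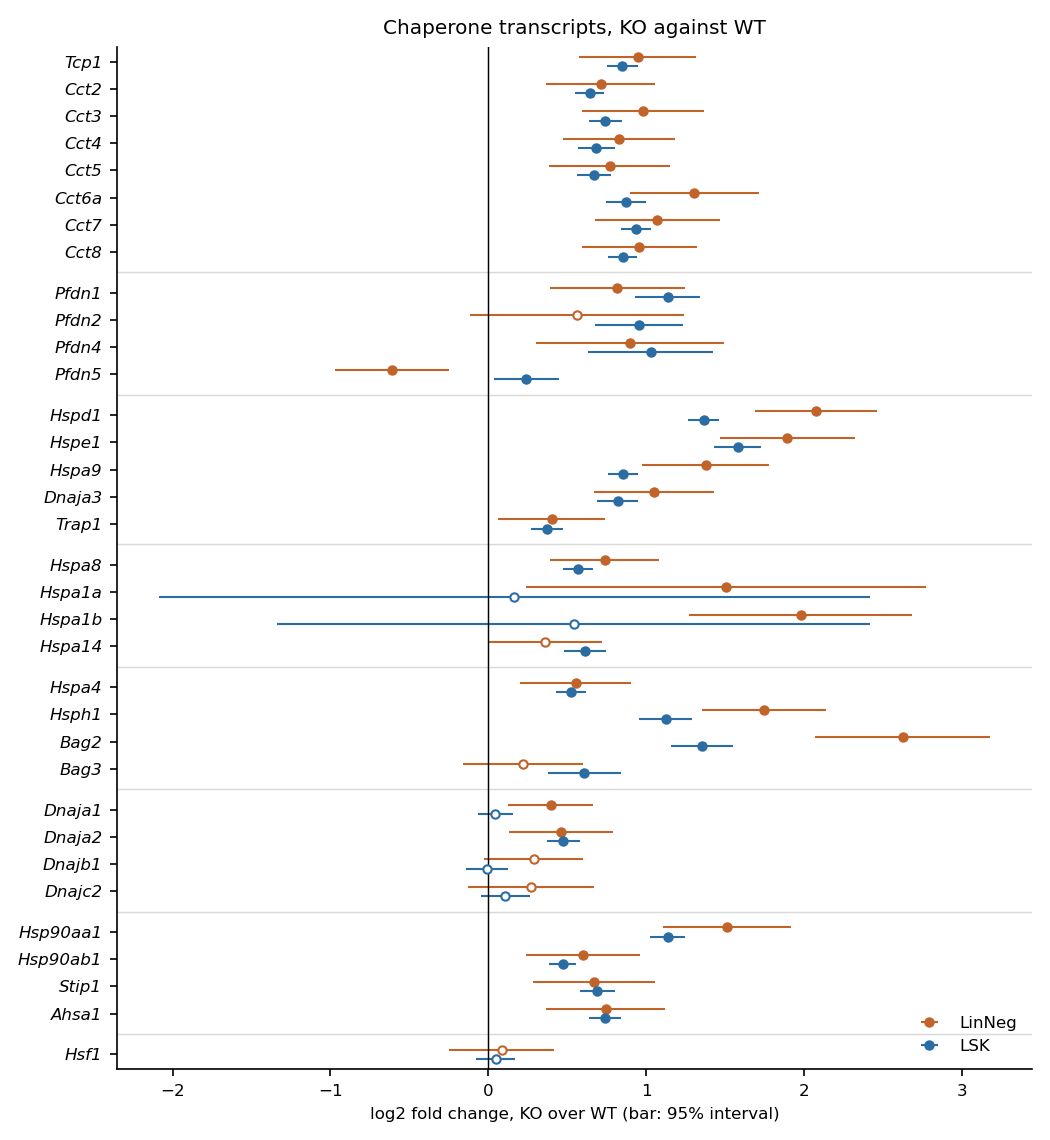
Log2 fold change of each chaperone transcript, KO over WT, in LinNeg (orange) and LSK (blue), with bars for the 95% interval and filled points for an adjusted p under 0.05; horizontal lines separate the groups by role. Nearly every point lies right of 0, Pfdn5 in LinNeg is the 1 called point on the left, and Hspa1a and Hspa1b have wide bars in LSK.

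All 8 subunits of CCT, the double-ring chaperonin that folds actin and tubulin, were higher in KO in both populations. Their fold changes ran from 1.64 to 2.48 in LinNeg and from 1.56 to 1.91 in LSK. Derived mean levels of Tcp1, the first subunit, went from 7560 to 14579 normalized counts in LinNeg and from 11135 to 20086 in LSK, which is 1.93-fold (95% interval 1.49 to 2.50) and 1.80-fold (1.68 to 1.93). Cct6a had the largest fold of the ring in LinNeg, from 3876 to 9592 (2.48-fold, 1.86 to 3.29), and stood at 7442 and 13635 in LSK (1.83-fold, 1.68 to 2.0). Cct2 had the smallest in both, from 8475 to 13909 in LinNeg (1.64-fold, 1.29 to 2.09) and from 10769 to 16814 in LSK (1.56-fold, 1.46 to 1.66). Cct7 was the subunit with the largest fold in LSK, from 8018 to 15326 (1.91-fold, 1.79 to 2.04), after 5701 to 11987 in LinNeg (2.10-fold, 1.6 to 2.77). In the authors' deposited tables the remaining subunits had log2 fold changes of 0.98 and 0.74 for Cct3, 0.83 and 0.69 for Cct4, 0.77 and 0.67 for Cct5 and 0.96 and 0.85 for Cct8, in LinNeg and LSK in that order. Adjusted p-values of the 8 subunits ran from 4.35e-09 (Cct6a) to 3.86e-04 (Cct5) in LinNeg and from 4.93e-82 (Cct7) to 1.87e-29 (Cct4) in LSK. The standard deviation of the log2 fold change over the 8 genes was 0.19 in LinNeg and 0.11 in LSK. The median standard errors of a single gene were 0.19 and 0.05. The 8 genes share the same libraries, so these standard errors do not measure the spread between genes.

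The subunits of CCT enter the ring in equal number, and their transcript levels can be set side by side only per length. Per kilobase of exon, derived levels in LinNeg WT ran from 712.5 (Cct3) to 3314 (Cct2) normalized counts, a ratio of 4.65, and in LinNeg KO from 1407 (Cct3) to 5440 (Cct2), a ratio of 3.87. In LSK the range was 1183 (Cct7) to 4212 (Cct2) in WT and 2205 (Cct3) to 6576 (Cct2) in KO, with ratios of 3.56 and 2.98. Lengths are unions of all annotated exons in GENCODE M21, and long minor transcripts lower the value of genes such as Cct3 and Cct7, whose unions span 6370 and 6778 bases.

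**Figure D2:**
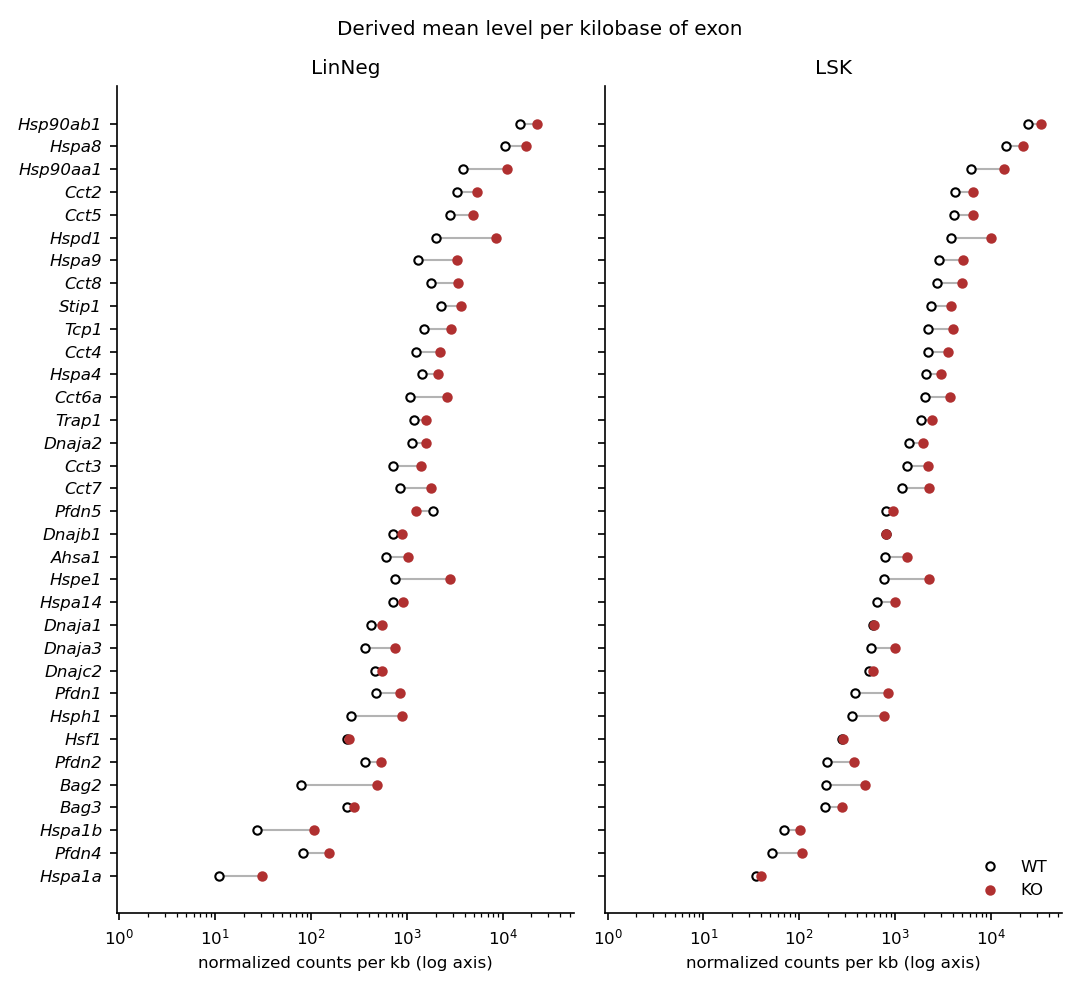
Derived mean level of each chaperone transcript in normalized counts per kilobase of exon (log axis) in LinNeg (left) and LSK (right), with open circles for WT and filled circles for KO, in the order of the LSK WT level. Error bars are not drawn because the means are derived from the authors' mean and fold change; Hsp90ab1 and Hspa8 are at the top of both panels, Hspa1a is at the bottom, and Pfdn5 in LinNeg is the clearest case with KO left of WT.

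Prefoldin, the jellyfish-shaped carrier that passes unfolded actin and tubulin to CCT, was the group of members with calls in both directions in LinNeg. Pfdn5 fell in LinNeg, from a derived 2626 to 1723 normalized counts (0.66-fold, 0.51 to 0.84), and was slightly higher in LSK, from 1127 to 1334 (1.18-fold, 1.03 to 1.36). The authors' deposited tables gave Pfdn5 a value of -0.61 on the log2 scale (SE 0.18, adjusted p = 0.00354) in LinNeg and 0.24 (SE 0.10, adjusted p = 0.0347) in LSK. That LSK call is lost after recentring, at a log2 fold change of 0.20 and an adjusted p of 0.0864. Pfdn5 overlaps exons of Myg1 on the same strand, and 17.9% of its 50-base words also occur in transcripts of other genes, so part of its reads may have been placed elsewhere.

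The other prefoldin genes listed went up. Pfdn1 rose from 532.1 to 938.7 in LinNeg (1.76-fold, 1.31 to 2.38) and from 421.5 to 927.1 in LSK (2.20-fold, 1.91 to 2.54). Pfdn4 rose from 208.9 to 389.7 (1.87-fold, 1.23 to 2.82) and from 130.8 to 267.0 (2.04-fold, 1.55 to 2.69). Pfdn2 rose in LSK, from 373.3 to 723.8 (1.94-fold, 1.6 to 2.36), and had a log2 fold change of 0.56 with an adjusted p of 0.187 in the authors' deposited LinNeg table. Per kilobase of exon, the level of Pfdn5 was the highest of the 4 in WT of both populations, at 1884 in LinNeg and 808.6 in LSK. That of Pfdn4 was the lowest, at 82.89 and 51.90. The ratio between the highest and the lowest went from 22.7 in WT to 7.99 in KO in LinNeg and from 15.6 to 9.03 in LSK.

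The 5 mitochondrial chaperones were all higher in KO in both populations and had the largest median of the member groups in LinNeg, a log2 fold change of 1.38 (0.86 in LSK). Hspd1, the HSP60 ring of the mitochondrial matrix, went from a derived 5300.5 to 22397 normalized counts in LinNeg (4.22-fold, 3.23 to 5.53) and from 10211 to 26312 in LSK (2.58-fold, 2.40 to 2.76). Hspe1, the lid that closes this ring, went from 1117 to 4159 in LinNeg (3.72-fold, 2.77 to 5.01) and from 1122 to 3355 in LSK (2.99-fold, 2.70 to 3.32). The authors' deposited tables gave adjusted p-values of 4.22e-24 and 6.47e-157 for Hspd1 and of 9.05e-17 and 2.19e-93 for Hspe1. The pair is read in opposite directions from a shared start region, with Hspd1 at chr1:55077835-55088243 on the minus strand and Hspe1 at chr1:55088132-55091307 on the plus strand (mm10). Their annotated exons overlap there, and transcripts of other genes hold 39.7% of the 50-base words of Hspd1 and 18.4% of those of Hspe1, so part of their reads may have been placed elsewhere.

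Hspa9, the matrix HSP70 that pulls proteins through the inner membrane and is also called mortalin, went from 5599 to 14559 in LinNeg (2.6-fold, 1.97 to 3.44) and from 12308 to 22263 in LSK (1.81-fold, 1.69 to 1.93). Dnaja3, its J-domain partner, went from 1417 to 2936 (2.07-fold, 1.59 to 2.70) and from 2218 to 3917 (1.77-fold, 1.62 to 1.93). Trap1, the mitochondrial HSP90, moved least, from 3093 to 4090 in LinNeg (1.32-fold, 1.05 to 1.67) and from 4856 to 6290 in LSK (1.30-fold, 1.21 to 1.39). Its LinNeg adjusted p of 0.0477 in the authors' deposited table becomes 0.254 after recentring and 0.0528 with the adjustment over every gene that has a p-value.

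Among cytosolic HSP70 genes the constitutive form was called in both populations and the heat-inducible pair in LinNeg, while the difference between populations was called for none of them (adjusted p = 0.528 for Hspa8, 0.482 for Hspa1a and 0.305 for Hspa1b). Hspa8, the constitutive HSC70 and per kilobase the most abundant HSP70 transcript, went from 45344 to 75631 normalized counts in LinNeg (1.67-fold, 1.31 to 2.12) and from 62231 to 92346 in LSK (1.48-fold, 1.39 to 1.58). Hspa1b, a heat-inducible HSP70, rose in LinNeg from 76.43 to 301.8 (3.95-fold, 2.42 to 6.44) and had derived means of 193.5 and 282.0 in LSK, where the interval of 0.396-fold to 5.36-fold includes no change. Hspa1a, its neighbour and near-copy, was at 32.50 and 92.28 in LinNeg (2.84-fold, 1.18 to 6.84) and at 105.9 and 118.6 in LSK (1.12-fold, 0.235 to 5.34). The authors' deposited tables gave adjusted p-values of 3.25e-07 and 0.645 for Hspa1b and of 0.0485 and 0.913 for Hspa1a.

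The heat-inducible pair had by far the largest standard errors of the members in LSK, 1.15 for Hspa1a and 0.96 for Hspa1b, beside a median of 0.06 over all members. Which libraries cause that spread cannot be read from tables without values per library. The call of Hspa1a in LinNeg is lost after recentring (adjusted p = 0.0810) and with the adjustment over every gene with a p-value (adjusted p = 0.0536). Both are single-exon genes on chromosome 17, Hspa1a at 34969190 to 34972156 and Hspa1b at 34956436 to 34959238 on the minus strand, and they share 60.3% and 62.3% of their 50-base words with other genes, nearly all with each other. Their separate values are uncertain for that reason. Hspa8 shares 38.6% with other genes. Hspa14, an HSP70 relative that works at the ribosome, rose in LSK (1.53-fold, 1.40 to 1.68, adjusted p = 7.83e-19 in the authors' deposited table) and in LinNeg had a log2 fold change of 0.36 (adjusted p = 0.104).

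Partners that reset HSP70 held the largest single change of the members. Bag2, a nucleotide exchange factor that also restrains the ubiquitin ligase CHIP, went from a derived 239.7 to 1480 normalized counts in LinNeg (6.18-fold, 4.20 to 9.08) and from 579.7 to 1481 in LSK (2.56-fold, 2.23 to 2.93). In the authors' deposited tables Bag2 had log2 fold changes of 2.63 (SE 0.28, adjusted p = 7.19e-19) and 1.35 (SE 0.10, adjusted p = 1.75e-40). Its LinNeg fold change stood at percentile 90.5 of all genes tested, so large changes were common in that table. Bag2 lies at chr1:33745484-33757795 on the minus strand. None of its 50-base words occurs in a transcript of another gene read in the same orientation. Its exons do overlap those of Gm37905 on the plus strand, so part of its reads may belong to that gene.

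Hsph1, or HSP105, an HSP110 exchange factor, went from 1912 to 6418 in LinNeg (3.36-fold, 2.56 to 4.40) and from 2576 to 5616 in LSK (2.18-fold, 1.94 to 2.45), with adjusted p-values of 5.14e-17 and 9.19e-39 in the authors' deposited tables. Hspa4, the other HSP110 protein listed, moved less, from 7983 to 11729 (1.47-fold, 1.15 to 1.88) and from 11641 to 16738 (1.44-fold, 1.35 to 1.53), and its LinNeg call is lost after recentring (adjusted p = 0.0617). Bag3, which directs HSP70 clients to autophagy, rose in LSK from 472.8 to 721.3 (1.53-fold, 1.30 to 1.79, adjusted p = 8.41e-07) and stood at 613.7 and 716.5 in LinNeg (adjusted p = 0.374).

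The cytosolic J-domain proteins, which hand clients to HSP70 and trigger its ATPase, had the smallest medians of the groups with more than 1 gene, 0.34 in LinNeg and 0.08 in LSK. Dnaja2 was higher in both populations, 1.38-fold (1.1 to 1.73) in LinNeg and 1.39-fold (1.29 to 1.5) in LSK. Dnaja1 went from 3606 to 4745 in LinNeg (1.32-fold, 1.09 to 1.58) and stood at 5019 and 5183 in LSK, where the interval ran from 0.957-fold to 1.11-fold. Dnajb1, the heat-inducible HSP40, stood at 2316 and 2827 in LinNeg (0.981-fold to 1.52-fold) and at 2568 and 2550 in LSK (0.905-fold to 1.09-fold). Dnajc2, a J-domain protein of the ribosome, had log2 fold changes of 0.27 (adjusted p = 0.294) and 0.11 (adjusted p = 0.237) in the authors' deposited tables. The LinNeg calls of Dnaja1 and Dnaja2 are lost after recentring, with adjusted p-values of 0.151 and 0.133.

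The HSP90 group was higher throughout. Hsp90aa1, the stress-inducible cytosolic HSP90, went from a derived 15158 to 43326 normalized counts in LinNeg (2.86-fold, 2.16 to 3.79) and from 24548 to 54030 in LSK (2.20-fold, 2.04 to 2.38). Hsp90ab1, the constitutive form, went from 45670 to 69220 in LinNeg (1.52-fold, 1.18 to 1.94) and from 72493 to 100600 in LSK (1.39-fold, 1.31 to 1.47). Per kilobase of exon, the level of Hsp90ab1 exceeded that of Hsp90aa1 in every group, at 15228 against 3856 in LinNeg WT and 23081 against 11022 in LinNeg KO, and at 24172 against 6245 in LSK WT and 33545 against 13745 in LSK KO. Stip1, which bridges HSP70 and HSP90, was 1.59-fold (1.22 to 2.08) and 1.62-fold (1.5 to 1.74) higher, and Ahsa1, which speeds up the ATPase of HSP90, was 1.68-fold (1.29 to 2.18) and 1.67-fold (1.56 to 1.79) higher. Transcripts of other genes hold 47.5% of the 50-base words of Hsp90aa1 and 3.44% of those of Hsp90ab1.

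Hsf1, the heat shock transcription factor, showed no detectable change in its transcript. It stood at 1684 and 1788 normalized counts in LinNeg and at 1964 and 2030 in LSK, with log2 fold changes of 0.09 (SE 0.17, adjusted p = 0.723) and 0.05 (SE 0.06, adjusted p = 0.530) in the authors' deposited tables, the first of which becomes -0.07 after recentring. The intervals allow 0.843-fold to 1.34-fold in LinNeg and 0.949-fold to 1.12-fold in LSK. HSF1 is controlled mostly at the protein level, which was not measured.

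The fold changes of the members in LSK and LinNeg were set against each other, since the 2 comparisons share no library. The groups labelled BM Lin- Cells and BMT LSK Cells differ in cell type and in BM or BMT. These cannot be told apart in any difference between populations. In 26 of the 34 the log2 fold change was larger in LinNeg, where the median gene was also higher (0.16, against 0.04 in LSK). The count of 26 is not corrected for that offset. Relative to the median gene, the median member stood at 0.64 in LinNeg and 0.65 in LSK. Across the 34 genes the 2 sets of values had a Pearson r of 0.70 and a Spearman rho of 0.73. Over the 15735 genes tested in both, not matched for level, they were 0.28 and 0.34. The genes of one table share the same 6 libraries and are not independent replicates. A test of the difference for each gene (LSK minus LinNeg, divided by the combined standard error of both, adjusted over all 15735 genes) called 5 members (14.7%), beside 31.9% of all genes.

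The rise in LinNeg exceeded that in LSK for Bag2 by a log2 difference of -1.27 (standard error 0.30, adjusted p = 1.70e-04), for Hspd1 by -0.71 (0.20, adjusted p = 0.00245), for Hsph1 by -0.62 (0.22, adjusted p = 0.0159) and for Hspa9 by -0.52 (0.21, adjusted p = 0.0416). Pfdn5 differed in the other direction, by 0.85 (0.21, adjusted p = 4.05e-04), having fallen in LinNeg. No CCT subunit differed between populations by this test, and 1 (Cct6a) had an unadjusted p under 0.05. Their differences ran from -0.43 (Cct6a, 95% interval -0.86 to -0.01, adjusted p = 0.120) to -0.07 (Cct2, -0.43 to 0.29). For Hspa1a and Hspa1b the intervals of the difference, -3.93 to 1.24 and -3.44 to 0.57, are too wide to place the populations. The calls of Hspa9 and Hsph1 are lost after recentring each table, with adjusted p-values of 0.122 and 0.0540.

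**Figure D3:**
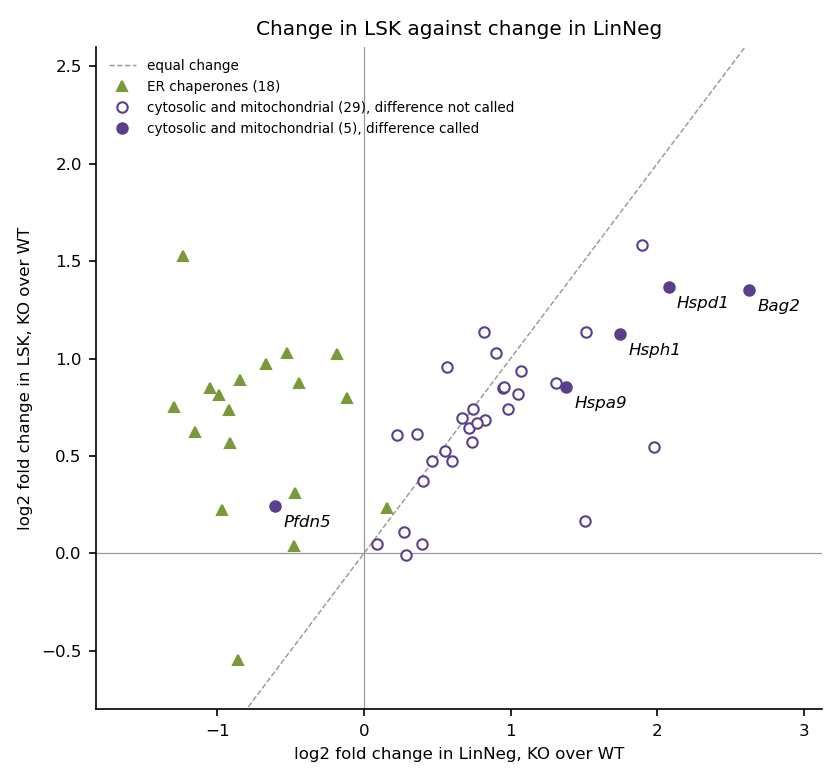
Log2 fold change in LSK (vertical) against that in LinNeg (horizontal), KO over WT, for the 34 cytosolic and mitochondrial chaperones (circles, filled where the difference between populations was called) and 18 chaperones of the endoplasmic reticulum (triangles); the dashed line marks equal change. The circles lie mostly at the upper right, 4 of the filled ones below the line, while the triangles lie mostly at the upper left together with Pfdn5.

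Chaperones of the endoplasmic reticulum, the compartment left out of the list, gave another pattern. Of 18 such genes, 14 were lower and none was higher in LinNeg (15 and 0 at an unadjusted p under 0.05 in the authors' DESeq2 table, median log2 fold change -0.85), while 15 were higher and 1 was lower in LSK (median 0.77). The difference between populations was called in 15 of the 18 (83.3%), all toward LSK, beside 31.9% of all genes in either direction. Of the 18, 12 were lower in LinNeg and higher in LSK. Among members only Pfdn5 had that combination. Its share over all genes was not computed. The authors' deposited tables gave log2 fold changes of -0.99 and 0.82 for Hsp90b1, the HSP90 of the reticulum, of -1.29 and 0.75 for Calr, the lectin chaperone calreticulin, of -0.92 and 0.73 for Pdia3, a disulfide isomerase, and of -1.24 and 1.53 for Sdf2l1, a stress-induced partner of BiP. The reticulum list was fixed for this description with earlier results known, as were the lists that follow.

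Genes that work with CCT and prefoldin but are not among the members changed less uniformly. Of 16 such genes, 4 were higher and 2 lower in LinNeg, and 10 were higher and 2 lower in LSK, with medians of 0.00 and 0.30. Ruvbl1 and Ruvbl2, ATPases of the R2TP assembly complex that cooperates with HSP90 and prefoldin-like proteins, rose 1.64-fold and 1.91-fold in LinNeg and 1.62-fold and 1.78-fold in LSK. Rpap3, which ties that complex to HSP90, rose 1.61-fold and 1.47-fold. Pfdn6, a further prefoldin subunit, rose 2.42-fold in LSK (adjusted p = 1.09e-29 in the authors' deposited table) and had a log2 fold change of 0.53 in LinNeg (adjusted p = 0.0715).

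Actin and tubulin genes, whose products CCT folds, went in both directions, with 6 higher and 3 lower of 13 in LinNeg and 8 higher and 4 lower in LSK. Actg1, cytoplasmic gamma-actin, fell from a derived 50314 to 21715 normalized counts in LinNeg and from 26497 to 22859 in LSK. Tubb4b, a widely expressed beta-tubulin, rose from 8344 to 14253 and from 10873 to 18197, and Tubg1, gamma-tubulin of the centrosome, rose 1.87-fold and 1.55-fold. Tubb3, a beta-tubulin best known from neurons, rose from 31.71 to 268.0 and from 12.28 to 314.9.

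**Figure D4:**
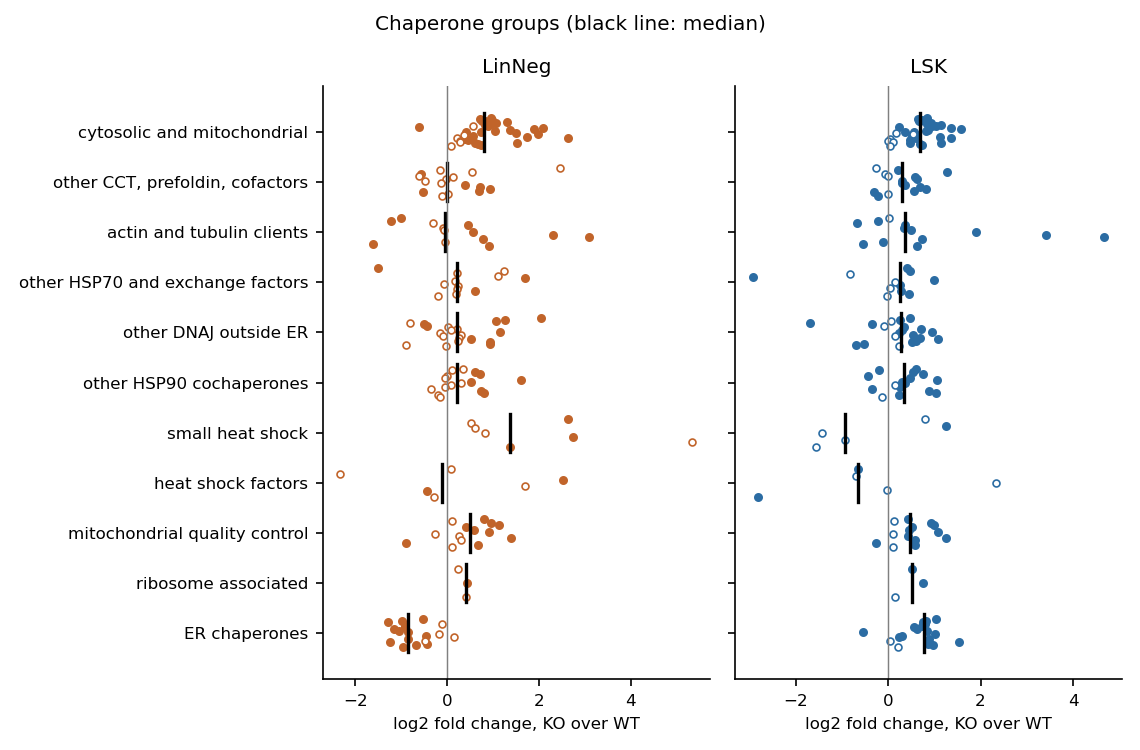
Log2 fold change, KO over WT, of each gene of the member list (top row) and of 10 related lists in LinNeg (left) and LSK (right), with filled points for an adjusted p under 0.05 and a black line at the median of each list. The member row has medians of 0.79 in LinNeg and 0.69 in LSK, and the row of endoplasmic reticulum chaperones has -0.85 and 0.77.

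HSP90 cochaperones outside the list were higher in 6 and lower in none of 16 in LinNeg (1 lower at an unadjusted p under 0.05 in the authors' DESeq2 table), and higher in 11 and lower in 3 in LSK (medians 0.21 and 0.34). Ppid, cyclophilin 40, rose from 1595 to 4858 in LinNeg (3.05-fold) and from 2615 to 5418 in LSK (2.07-fold), with a difference between populations of -0.56 (adjusted p = 0.0175). Fkbp4, an immunophilin of steroid receptor complexes, rose 1.64-fold and 1.68-fold, Ptges3, the cochaperone p23, rose 1.52-fold and 1.45-fold, and Nudcd2 rose 1.75-fold and 2.05-fold.

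Among HSP70 relatives and exchange factors outside the list, 2 were higher and 1 was lower of 12 in LinNeg, and 6 were higher and 1 was lower of 11 tested in LSK. Bag1, an exchange factor, rose 1.99-fold in LSK and stood at 3125 and 3548 normalized counts in LinNeg (adjusted p = 0.487 in the authors' deposited table). Hspa2, a testis-enriched HSP70, fell from 906.0 to 317.2 in LinNeg and rose from 381.5 to 506.1 in LSK. Hspa12b, a distant HSP70 relative, fell from 552.9 to 72.66 in LSK and rose from 21.04 to 68.20 in LinNeg (adjusted p = 0.0488 in the authors' deposited table). Hspbp1, which releases nucleotide from HSP70, rose 1.53-fold and 1.21-fold.

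Other J-domain genes outside the reticulum were higher in 7 and lower in 2 of 20 in LinNeg and higher in 12 and lower in 4 in LSK (medians 0.23 and 0.28). Dnaja4 and Dnajb2 had the largest called folds of this list in LinNeg, 4.12 and 2.39, and 1.38 and 1.195 in LSK. Dnajc11, of the mitochondrial contact site system, rose 2.22-fold and 1.93-fold, and Dnajc19, of the inner membrane import motor, rose 1.43-fold and 2.12-fold. Dnajc27 rose 1.92-fold in LinNeg and fell in LSK, from 1166 to 816.1. Dnajb5 fell in LSK from 208.1 to 64.84 and had a log2 fold change of -0.80 in LinNeg (adjusted p = 0.152 in the authors' deposited table).

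Genes of mitochondrial protein quality control and import outside the list were higher in 8 and lower in 1 of 14 in LinNeg and higher in 10 and lower in 1 in LSK, with medians of 0.50 and 0.48. Htra2, a protease of the intermembrane space, rose 2.61-fold and 2.39-fold. Clpp, the matrix protease subunit, rose 2.18-fold and 2.0-fold, Lonp1, the Lon protease, rose 1.93-fold and 1.90-fold, and Afg3l2, of the inner membrane protease, rose 1.89-fold and 2.12-fold. The difference between populations was called in 0 of these 14 genes by the same normal test, beside 31.9% of all genes, and 2 had an unadjusted p under 0.05. Standard errors of the difference reached 0.39 (Atf5), and Hscb had a difference of 0.64 (adjusted p = 0.0556). The absence of calls therefore does not show equal change.

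Small heat shock proteins, which hold unfolded proteins without ATP, were scarce in LSK. In LinNeg 3 of 7 tested were higher: Hspb1 went from a derived 28.26 to 175.5 normalized counts, Hspb8 from 21.57 to 144.0 and Cryab from 149.1 to 385.4. In LSK the same genes stood at 1.51 and 2.61, at 8.0 and 2.96 and at 9.83 and 3.35, and none of these was called. Hspb6 was the 1 called of 5 tested in LSK, from 62.80 to 149.1 (adjusted p = 9.48e-07 in the authors' deposited table).

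The other heat shock factors, listed with Hsbp1 and Hsf2bp, gave few calls, 1 higher and 1 lower of 6 in LinNeg and 2 lower of 5 tested in LSK. Hsbp1 and Hsf2bp are not heat shock factors themselves. Hsbp1 was the lower gene in LinNeg, and Hsf2bp was 1 of the 2 lower in LSK. Hsf2 fell from 625.1 to 395.7 in LSK and stood at 338.9 and 359.3 in LinNeg. Hsbp1, which binds and restrains heat shock factors, fell in LinNeg from 1799 to 1327 (adjusted p = 0.0237 in the authors' deposited table). Hsf4 and Hsf2bp were at or below 87.06 normalized counts in every group. Of the 3 subunits listed of the nascent chain-associated complex, which meets new chains at the ribosome, Btf3 rose 1.34-fold and 1.70-fold, and Naca rose 1.44-fold in LSK (adjusted p = 0.224 in LinNeg).

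Exon number and shared sequence are listed here, since U2af1 acts in splicing and reads may be split among copies. No relation of exon number to fold change was tested. The main transcripts of the 34 members have 1 to 19 exons, and 2 genes, Hspa1a and Hspa1b, have a single exon. Of the 13 members with no 50-base word in common with another gene, 10 were higher in LinNeg and 12 in LSK, 10 of them in both. Over all genes tested the shares were 22.1%, 32.4% and 14.1%. The medians of the 13 were 0.71 and 0.67. These 13 include Bag2, Hsph1, Cct2, Cct5 and Cct8. The word search read all transcripts in one orientation, so it does not see genes that overlap on the opposite strand. Cct8, Pfdn2, Pfdn4, Trap1 and Bag2 are among the 13 and have such an overlap. Annotated exons of Tcp1, Cct6a, Cct7, Cct8, Pfdn2, Pfdn4, Hspd1, Hspe1, Dnaja3, Trap1, Hspa1a, Bag2 and Dnaja1 overlap exons of a gene on the opposite strand. Whether counting used strand is not stated in the sources used, so reads of such pairs may not be told apart.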

How the data were processed

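RNA-seq of 12 libraries enters through 2 deposited comparison tables, 1 each for LinNeg and LSK. The submitters' processing notes name build mm10 and list StringTie, HISAT2, DESeq2 and SAMtools 1.10. Neither the counter nor its annotation is given in the sources used. Per the file headers, the columns are a mean normalized count from the authors (a linear signal), a log2 fold change from the authors with a standard error, a Wald statistic from the authors (a score), and p-values, raw and adjusted, from the authors' DESeq2 run. Each table has 24542 rows, of which 5 that name no gene and 4 with repeated symbols were left out. The row for reads that met no feature held 38.0% (LinNeg) and 26.4% (LSK) of all counts. Because each table has its own normalization, levels are compared within a table.

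Multiplying the statistic by the standard error gave log2 fold changes with more digits than the rounded deposited ones (largest difference 0.005). Means per label were derived from the mean and fold change, taking 3 libraries on each side. Intervals cover 95% and assume normal errors. P-values reflect variation among these libraries, possibly only technical. Depth per library is unknown, so the precision rests on the authors' standard errors. Genes were called at an adjusted p under 0.05, as deposited. The difference between populations was tested as a two-sided normal test with Benjamini-Hochberg adjustment, and this test was checked on simulated data. A fit on counts could not be made from comparison tables. The members and all lists were chosen with earlier results of these data known. Genes named are U2af1, all members and, from each related list, up to 4 called genes with the smallest summed rank of adjusted p. Dnaja4 and Dnajb2 are named in addition, for the size of their LinNeg fold. Markers are given as counts and examples. Alternatives were a threshold of 0.01, adjustment over all genes with a p-value, recentring on the median gene, a mean of at least 100 and a change of at least 1.5-fold. Exons and coordinates come from GENCODE M21 (mm10), and promoter windows from RefSeq (GRCm38.p6). Shared sequence is the share of 50-base words of a gene's transcripts found in transcripts of another gene in the same orientation. Overlap on the opposite strand does not enter it. Versions were matplotlib 3.10.9, scipy 1.17.1, numpy 2.4.6, pandas 2.3.3 and Python 3.11.15.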

Additional observations from a re-analysis of the deposited data

Results flagged for a closer look

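For 5 members the change differed between LSK and LinNeg by a test of the difference itself, adjusted over all 15735 genes tested in both tables. The log2 difference, LSK minus LinNeg, was -1.27 for Bag2 (log2 fold changes of 2.63 in LinNeg and 1.35 in LSK). It was -0.71 for Hspd1 (2.08 and 1.37), -0.62 for Hsph1 (1.75 and 1.12) and -0.52 for Hspa9 (1.38 and 0.86). For Pfdn5 it was 0.85 (-0.61 and 0.24), with opposite signs in the populations. Such a difference was called in 31.9% of all genes. Cell type and the BM or BMT of the labels cannot be told apart in it.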

How the results depend on the processing

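No paired analysis was possible because the tables hold the authors' comparisons and no values per library. For the same reason no replicate was left out in turn. The 5 members whose change differed between populations became 3 at an adjusted p under 0.01 and 3 after recentring each table on its median gene, without Hspa9 and Hsph1 in both cases, 6 with a mean of at least 100 (with Dnaja1, adjusted p = 0.0477) and 4 with a change of at least 1.5-fold (without Hspa9). The 28 members called in LinNeg became 24 at an adjusted p under 0.01, 26 with the adjustment over every gene with a p-value, 23 after recentring, 27 with a mean of at least 100 and 24 at 1.5-fold or more. The 28 called in LSK became 27, 28, 27, 28 and 22 in the same order. Hsf1 in LinNeg changed sign after recentring, from 0.0865 to -0.0695 (adjusted p = 0.784), a value that had not been called. Over all genes, asking for at least 1.5-fold lowered the calls in LSK from 61.6% to 37.5% of genes, and recentring changed the split of called differences from 2743 higher and 2282 lower in LSK to 3415 and 1995. Standard errors set the precision, with a median over the members of 0.20 in LinNeg and 0.06 in LSK.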
